A study of Mus musculus with 6 samples.

Results

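The genes of fatty acid oxidation and ketogenesis were described in mouse hepatocytes of 2 genotypes, wild type (WT) and homozygous AEG-1-C75S. The set holds 38 genes of 55487 in the count files, chosen by symbol from the pathway with earlier results of these data known. All 38 were found and passed the filter on low counts. By the place of their products, 20 are mitochondrial, 10 peroxisomal and 8 act elsewhere or in several places. AEG-1 is a membrane protein of the endoplasmic reticulum encoded by *Mtdh*, and C75S puts a serine in place of the cysteine that carries its palmitoyl group. Both genotypes were bred from heterozygous parents, the mice were 6 to 8 weeks old, and RNA was taken 48 h after the hepatocytes were isolated. The treatment label is Control for every library. There were 3 libraries per genotype. Whether these came from separate mice is not given, so p-values measure the spread between libraries, which may be technical.

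In liver, fatty acids enter the cell, are bound by carrier proteins and are activated to acyl-CoA. Long chains reach the mitochondrial matrix through the carnitine shuttle, where each turn of beta-oxidation shortens them and yields acetyl-CoA, and much of that acetyl-CoA is made into ketone bodies during fasting. Peroxisomes run a parallel pathway for very long and branched chains and for bile acid precursors. The nuclear receptor PPAR-alpha raises many of these genes in fasting by binding, with RXR, to a pair of half-sites spaced by a single base, known as DR1.

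The DR1 letters were looked for because *Fabp1*, the member with the smallest p-value, is a textbook PPAR-alpha target. The search looked for AGGTCA, any base and again AGGTCA on both strands, with up to 2 mismatches among the 12 fixed letters, in the 250 bases before the gene start in RefSeq's GRCm38.p6 table. A promoter was listed for 32 of the 38 members, and not for *Acat1*, *Acaa2*, *Vnn1*, *Hsd17b4*, *Crat* or *Decr1*. A match was present in 3 of the 32 (9.38%), against 1005 of 27025 genes in the table (3.72%). The matches, each read in the direction of the motif with fitting letters in capitals and mismatches in lower case, were:
*Fabp1*: AGGcCATAGGTCA
*Cd36*: AaGTCAGAGGcCA
*Etfa*: AGGgCAAAGGTaA
All 3 lie on the strand opposite to the gene, and their first bases in the gene's direction are 67, 63 and 77 bases before the RefSeq start. In the stretch upstream of *Fabp1* at chr6:71199629-71199826 (GRCm38, plus strand), shown up to the first base of the GENCODE gene model, the capitals mark that match as it stands on the plus strand:
*Fabp1* upstream: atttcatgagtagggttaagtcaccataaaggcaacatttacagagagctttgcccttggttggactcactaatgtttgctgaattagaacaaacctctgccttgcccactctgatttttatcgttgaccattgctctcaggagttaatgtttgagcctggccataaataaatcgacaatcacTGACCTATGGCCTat
A match describes these letters and was not read as a binding site.

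The libraries held from 16944723 to 21044292 counts on genes. C75S replicate 1 was the shallowest and had the largest share of unmapped reads (5.81%, against 4.37% to 4.82% in the others). Hepatocyte markers were abundant in every library. Their summed level, over the 10 of 11 listed markers that could be matched, was 75188 to 88511 CPM (the count relative to the TMM-scaled library size) in C75S and 84157 to 92015 CPM in WT, with C75S replicate 1 the lowest. *Alb*, for albumin, made up most of that sum (55643 CPM in C75S replicate 1, 59707 to 70067 CPM in the others). The markers did not share a direction: *Apoa2* (473 to 549 CPM in C75S, 350.0 to 386 in WT) and *Fgb* (1592 to 1764 and 1259 to 1360 CPM) were called higher in C75S and *Ahsg* (6606 to 7059 and 7742 to 8056 CPM) lower. Markers of other cells were low. Summed levels were 96.4 to 140 CPM in C75S and 102 to 134 CPM in WT for Kupffer cells and macrophages (2 of 8 genes passed the filter), and 31.4 to 41.9 and 29.7 to 40.5 CPM for endothelial cells (5 of 7). They were 68.1 to 85.1 and 82.3 to 107 CPM for stellate cells (5 of 8), and 144 to 197 and 122 to 133 CPM for cholangiocytes (4 of 6). The cholangiocyte sums did not overlap between genotypes, with C75S replicate 1 the highest. Most of each sum was *Spp1* (105 to 157 CPM in C75S, 83.9 to 96.5 CPM in WT). *Krt19* was called higher in C75S (log2 fold change 0.80, edgeR adjusted p = 0.00151), and *Sox9* and *Krt7* overlapped between genotypes. The part of the cholangiocyte markers in the results was not tested. Of 5 adipocyte markers none passed the filter, and *Lep* and *Retn* were at 0 throughout. The cholangiocyte marker *Cftr* was also at 0, and the Kupffer cell markers *Cd5l* and *Adgre1* never exceeded 3 counts.

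Levels were compared between members per exon length, with each library scaled to a fixed total (TPM). In WT the highest was *Acaa2*, for a thiolase of the mitochondrial pathway, at 444 ± 17.4 (mean ± SD, n = 3). Next came the peroxisomal multifunctional enzyme gene *Hsd17b4* at 302 ± 21.1 (n = 3). Below it was the very long chain dehydrogenase gene *Acadvl* at 289 ± 16.5 (n = 3). *Hsd17b4* and *Acadvl* did not differ beyond their spread. *Cpt1a*, whose product is the rate-controlling entry enzyme of the mitochondria, was in the lower part of the order at 56.9 ± 3.35 (n = 3). The length was that of the merged exons of all transcripts, so the order depends on the annotation. For *Cpt1a* it was 7642 bases, against 4317 for the longest transcript, and for *Acaa2* both were 1516. The lowest were *Acot1* at 7.21 ± 0.94, *Hadhb* at 5.27 ± 0.05 and *Bdh1*, the gene for the last enzyme of ketone body synthesis, at 4.18 ± 0.10 (n = 3 each). Mitochondrial and peroxisomal genes were found throughout the order.

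**Figure D1:**
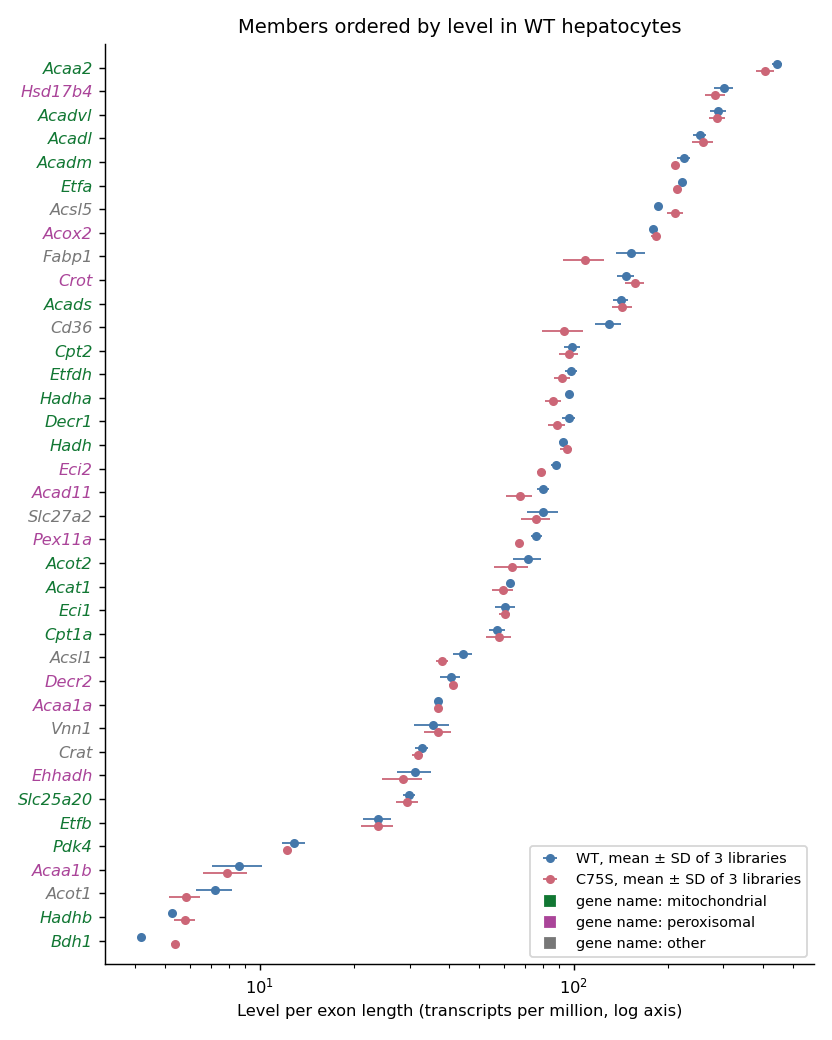
Level per exon length of the 38 members (log axis, TPM), ordered by the WT mean, with points for the mean and bars for the SD of 3 libraries per genotype and gene names coloured by compartment. The order runs from *Acaa2* at 444 to *Bdh1* at 4.18 in WT, and most pairs of points lie close together.

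Between genotypes, edgeR called 3 of the 38 members at an adjusted p-value under 0.05, and all 3 were lower in C75S: *Fabp1*, *Acad11* and *Acsl1*. That is 7.89% of the members, which were chosen with earlier results of these data known, so their shares are descriptions. Of all 12741 genes tested 3.11% were called, 1.37% as lower and 1.74% as higher. The members' median log2 fold change was -0.07, with 26 of 38 below 0, and the median of all tested genes was -0.00296, with 50.9% below 0. Without adjustment, 12 members (31.6%) had a p-value under 0.05, 10 lower and 2 higher, against 13.4% of all genes (6.51% lower and 6.91% higher). In 8 members (21.1%) the genotypes did not overlap, against 18% of all genes (8.96% lower and 9.02% higher). Of these 8, *Fabp1*, *Cd36*, *Acad11*, *Hadha*, *Eci2* and *Pex11a* were lower in C75S and *Acsl5* and *Bdh1* higher.

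Each of the 3 calls was lost when 1 of several libraries was left out. Without C75S replicate 1 no member was called by edgeR, although 10 had an unadjusted p-value under 0.05, and the members' median was -0.00193. Without WT replicate 3 again none was called, with 9 at an unadjusted p-value under 0.05, and the median was -0.0347. C75S replicate 1 was the lowest of the 6 libraries for 27 of 38 members, where it was the lowest for 18.4% of all tested genes. WT replicate 3 was the highest for 19 members, against 17.2% of all tested genes. Relative to each member's WT mean, the median member stood at -0.15 (log2) in C75S replicate 1, 0.00 in replicate 2 and -0.03 in replicate 3, and at -0.02, -0.03 and 0.05 in the WT libraries. C75S replicate 1 was also the library with the lowest depth, the highest unmapped share and the lowest *Alb*, and their part in the result was not tested. In bulk RNA, fewer cells of a type and less RNA per cell cannot be told apart.

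**Figure D2:**
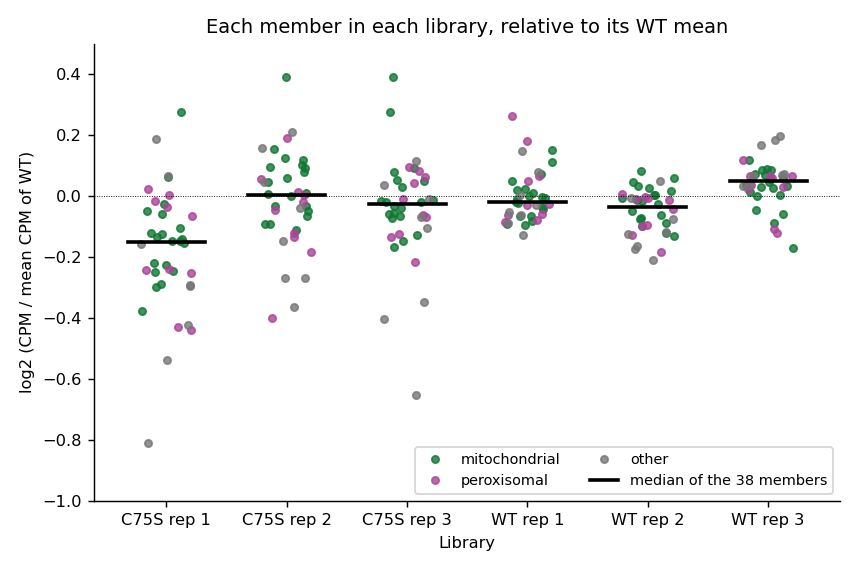
Each of the 38 members in each library as log2 of its CPM over its WT mean, with points coloured by compartment and black bars for the median of the 38. The bar of C75S replicate 1, at -0.15, lies below those of the other 5 libraries, which range from -0.03 to 0.05.

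Genes of fatty acid uptake, binding and activation held 2 of the 3 calls. *Fabp1* (ENSMUSG00000054422, chromosome 6, 71199827 to 71205023 on the plus strand, GRCm38), the liver fatty acid binding protein that carries acyl chains in the cytosol, was at 16.2, 22.2 and 22.4 CPM in the C75S libraries and 27.4, 26.2 and 32.02 CPM in WT. Every C75S library was below every WT library. The mean fell from 28.5 ± 3.09 to 20.3 ± 3.49 CPM (SD, n = 3 each), which is -0.49 ± 0.11 on the log2 scale (fold change ± SE; edgeR adjusted p = 0.0164). Without C75S replicate 1 the change was -0.36 (edgeR adjusted p = 0.0638), and without WT replicate 3 it was -0.40 (0.0913). Over all 15 alternative fits the adjusted p-value ran from 7.33e-06 to 0.0913. *Acsl1* (ENSMUSG00000018796, chromosome 8, 46471037 to 46536051, plus strand), a main acyl-CoA synthetase of liver, was at 128, 131 and 146 CPM in C75S and 144, 163 and 165 CPM in WT, so C75S replicate 3 lay above WT replicate 1. On the log2 scale the change was -0.22 ± 0.06 (edgeR adjusted p = 0.0402). The call was lost with limma-voom (adjusted p = 0.0569) and when C75S replicate 1 or 2 or WT replicate 2 or 3 was left out. The adjusted p-value ran from 0.00269 to 0.207 over the 15 alternatives.

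The other 3 genes of this step were *Cd36*, *Acsl5* and *Slc27a2*, which did not pass the test. *Cd36*, which encodes a fatty acid translocase of the plasma membrane and is also expressed by macrophages, endothelial cells and adipocytes, was at 108, 130 and 99.7 CPM in C75S and 166, 140 and 165 CPM in WT. The groups did not overlap, and its log2 fold change of -0.48 was close to that of *Fabp1*, but the edgeR adjusted p-value was 0.0659 (95% interval -0.72 to -0.23). DESeq2 and limma-voom put it at adjusted p = 0.0255 and 0.00128, and it was called in 6 of the 15 alternatives, with adjusted p-values from 4.67e-14 to 0.321. Summed Kupffer cell and macrophage markers and endothelial markers, given above, overlapped between genotypes, and each sum came mostly from 1 gene (*Cd68* and *Stab2*). The endothelial markers *Pecam1*, *Lyve1* and *Kdr* were at or below 3.80 CPM, with every C75S library above every WT library and edgeR adjusted p-values of 0.208, 0.131 and 0.521. Their part in the *Cd36* values was not tested. *Acsl5*, another acyl-CoA synthetase, had the opposite sign. It was at 348, 354 and 331 CPM in C75S and 300, 304 and 313 CPM in WT, with no overlap. The log2 change was 0.17 ± 0.05, with adjusted p = 0.0513 in edgeR and 0.0226 in DESeq2, and 6 of the 15 alternatives called it (0.0226 to 0.207). The 404 bases of *Acsl5* exon that overlap *Zdhhc6* lie on the opposite strand, and the counts used here are strand-specific. *Slc27a2*, for a very long chain acyl-CoA synthetase and transporter, ranged from 83.0 to 116 CPM over the 6 libraries (log2 fold change -0.07, 95% interval -0.31 to 0.16). *Cd36*, *Acsl5* and, below, *Eci2* were singled out after their values were seen.

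**Figure D3:**
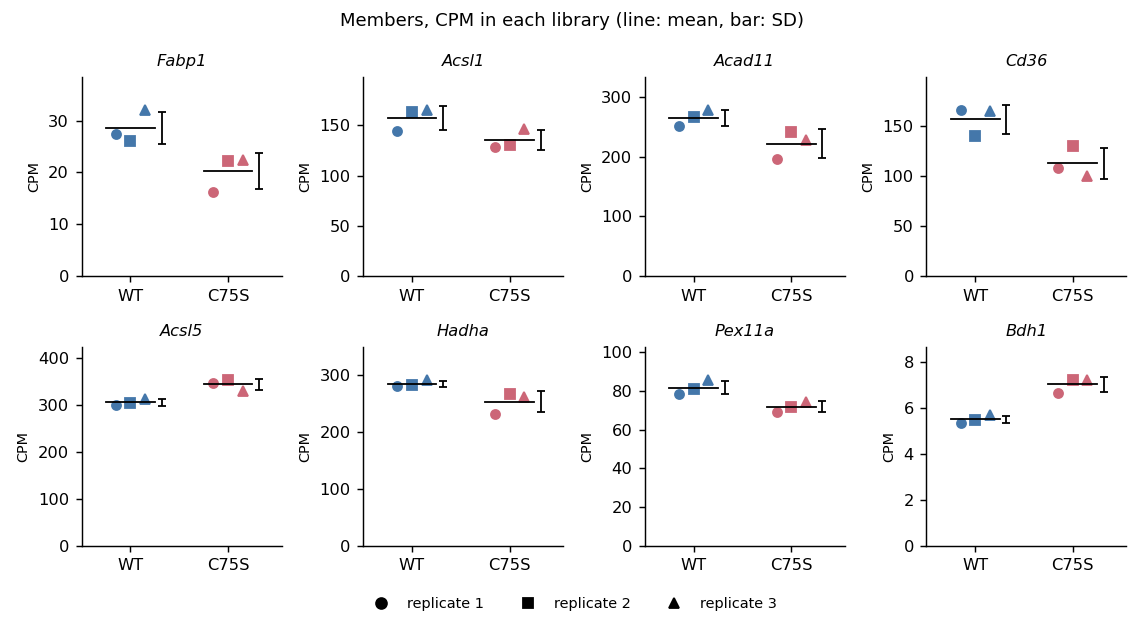
CPM of 8 members in each library (linear axes from 0), with a symbol for each replicate number, lines for the means and bars for the SD of 3 libraries. All C75S points of *Fabp1*, *Acad11*, *Cd36*, *Hadha* and *Pex11a* lie below the WT points, those of *Acsl5* and *Bdh1* lie above, and those of *Acsl1* overlap.

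The carnitine shuttle showed no detectable difference. *Cpt1a*, which makes acylcarnitine at the outer membrane, was at 141, 164 and 141 CPM in C75S and 150, 137 and 154 CPM in WT, a log2 fold change of 0.02 with a 95% interval of -0.10 to 0.14. *Slc25a20*, the carnitine-acylcarnitine carrier of the inner membrane, had an interval of -0.16 to 0.12, and *Cpt2*, which restores acyl-CoA inside, -0.17 to 0.08. The groups overlapped for all 3 genes. Of the acyltransferases for shorter chains, peroxisomal *Crot* was at 253 to 309 CPM over the 6 libraries (95% interval of the log2 fold change -0.03 to 0.20) and *Crat* at 53.7 to 62.7 CPM (-0.18 to 0.08).

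None of the 20 mitochondrial members was called by edgeR, DESeq2 or limma-voom (*Hadha* was, in edgeR with no filter beyond 1 count). In edgeR, 3 of them were lower and 1 was higher at an unadjusted p-value under 0.05 (20%, against 13.4% of all genes). Their median log2 fold change was -0.03. Their summed level was 2250, 2512 and 2455 CPM in C75S and 2471, 2484 and 2589 CPM in WT, so the genotypes overlapped.

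The acyl-CoA dehydrogenases, which open each turn of oxidation, covered the chain lengths in order. *Acadvl*, for very long chains, had a log2 fold change of -0.01 (95% interval -0.13 to 0.11), *Acadl*, for long chains, 0.03 (-0.08 to 0.14) and *Acads*, for short chains, 0.01 (-0.11 to 0.14). *Acadm*, for medium chains, was at 271, 275 and 284 CPM in C75S and 279, 303 and 310 CPM in WT, a log2 fold change of -0.10 (-0.21 to 0.00). In each of these 4 genes the groups overlapped. The electron transfer flavoprotein and its oxidoreductase take the electrons from these enzymes to the respiratory chain. *Etfa* was at 128 to 141 CPM and *Etfdh* at 212 to 259 CPM over the 6 libraries, with log2 fold changes of -0.06 and -0.10, and neither passed the test. *Etfb* was counted at 7.87 to 10.2 CPM. That level is uncertain, because 67.3% of the 50-base windows of its longest transcript also occur in *Gm45233*, which overlaps it on the same strand.

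*Hadha* and *Hadhb* encode the alpha and beta subunits of the mitochondrial trifunctional protein, which carries out the later steps on long chains. *Hadha* (ENSMUSG00000025745, chromosome 5, 30118304 to 30155162, minus strand) was at 232, 268 and 261 CPM in C75S and 282, 282 and 292 CPM in WT. The groups did not overlap, with a log2 change of -0.17 ± 0.05, but the edgeR adjusted p-value was 0.0971. Over the alternatives it ran from 0.0378, with no filter beyond 1 count, to 0.437, without C75S replicate 1. *Hadhb* was at 11.5, 12.8 and 14.2 CPM in C75S and 11.6, 11.9 and 11.8 CPM in WT, a log2 fold change of 0.13 (95% interval -0.10 to 0.36). Per exon length in WT, *Hadha* stood at 96.6 ± 1.51 and *Hadhb* at 5.27 ± 0.05 TPM (SD, n = 3 each), although the genes are transcribed away from each other from start points that lie close together. The 85 bases between the gene models, chr5:30155163-30155247 (GRCm38, plus strand), are shown because a gene starts at either end:
*Hadha*-*Hadhb*: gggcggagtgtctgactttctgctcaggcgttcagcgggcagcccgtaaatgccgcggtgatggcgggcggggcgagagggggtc
Of the 50-base windows of the longest *Hadhb* transcript, 4.42% occur in transcripts of other genes. Reads that map to several places were not counted, and whether such reads lowered *Hadhb* was not tested.

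The remaining mitochondrial oxidation enzymes did not pass the test. *Acaa2* was at 187, 214 and 225 CPM in C75S and 218, 237 and 228 CPM in WT, and *Decr1*, the dienoyl-CoA reductase for unsaturated chains, at 108, 124 and 114 CPM in C75S and 126, 120 and 133 CPM in WT. Both had a log2 fold change of -0.13, with edgeR adjusted p-values of 0.346 and 0.291, and in both the groups overlapped. *Hadh*, the dehydrogenase for shorter hydroxyacyl chains, and *Eci1*, an enoyl-CoA isomerase, had log2 fold changes of 0.03 (95% interval -0.08 to 0.13) and -0.01 (-0.15 to 0.14). *Pdk4*, which restrains glucose oxidation when fat is burned and is a fasting-induced gene, was at 13.8 to 16.6 CPM over the 6 libraries, with an interval of -0.29 to 0.14.

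**Figure D4:**
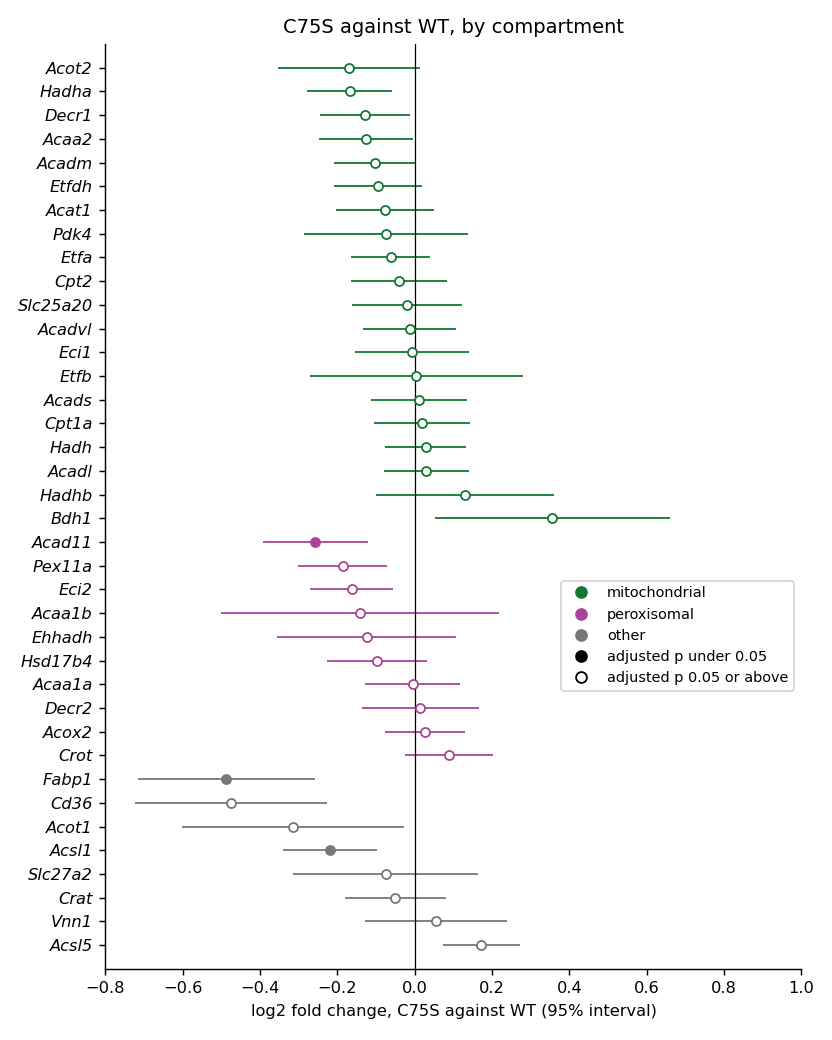
Log2 fold change of C75S against WT for the 38 members with 95% intervals, grouped and coloured by compartment, with filled points for an adjusted p-value under 0.05. The filled points are *Acad11*, *Fabp1* and *Acsl1*, and 26 of the 38 points lie left of 0.

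Among the 10 peroxisomal members 1 was called, *Acad11* (10%, against 3.11% of all genes), and the median log2 fold change was -0.11. *Acad11* (ENSMUSG00000090150, chromosome 9, 104063377 to 104127725, plus strand) encodes an acyl-CoA dehydrogenase for long chains and chains with a hydroxyl group. It was at 196, 242 and 229 CPM in C75S and 251, 267 and 278 CPM in WT, with no overlap. The log2 change was -0.26 ± 0.06 (edgeR adjusted p = 0.0314), and it was -0.17 without C75S replicate 1 (edgeR adjusted p = 0.128). The call was also lost without WT replicate 2 (0.132) or WT replicate 3 (0.169), and the adjusted p-value was as low as 6.7e-05 with no filter beyond 1 count. *Acad11* shares 163 exonic bases with *Gm28305* on its own strand, and reads there could be assigned to neither gene. The summed level of the peroxisomal members was 1302, 1482 and 1438 CPM in C75S and 1454, 1449 and 1546 CPM in WT, which overlapped as the mitochondrial sums did. The difference between the peroxisomal and mitochondrial medians was not tested, and the peroxisomal median was -0.0165 without C75S replicate 1 and -0.0197 without WT replicate 1.

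In *Pex11a* and *Eci2* the genotypes were separated but the test was not passed. *Pex11a*, whose product elongates and divides peroxisomes and which PPAR-alpha activators induce, was at 69.1, 72.0 and 74.6 CPM in C75S and 78.7, 81.1 and 85.7 CPM in WT. The log2 change was -0.19 ± 0.06 (edgeR adjusted p = 0.0718), and it passed in none of the 15 alternatives (0.0527 to 0.277). *Eci2*, an enoyl-CoA isomerase, was at 139, 152 and 152 CPM in C75S and 158, 165 and 172 CPM in WT (log2 fold change -0.16, edgeR adjusted p = 0.101). For the core peroxisomal enzymes the genotypes overlapped. *Hsd17b4* was at 294 to 348 CPM in C75S and 327.7 to 377 CPM in WT, and its log2 fold change was -0.10 (95% interval -0.23 to 0.03). *Ehhadh*, the other multifunctional enzyme gene, was at 23.4, 31.8 and 31.3 CPM in C75S and 35.8, 29.5 and 29.2 CPM in WT, so that C75S replicate 1 and WT replicate 1 lay at the ends. *Acox2*, the oxidase for branched chains and bile acid precursors, had a log2 fold change of 0.03 (-0.08 to 0.13), and the reductase gene *Decr2* 0.01 (-0.14 to 0.17). The thiolase genes *Acaa1a* and *Acaa1b* are close copies on chromosome 9: 15.6% of the 50-base windows of the longest *Acaa1a* transcript and 35.5% of those of *Acaa1b* occur in the other gene. *Acaa1a* was counted at 53.6 to 56.9 CPM and *Acaa1b* at 4.32 to 6.84 CPM, neither differed detectably, and the split of reads between them is uncertain.

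Neither of the ketone body enzymes in the set passed the test. *Acat1*, the thiolase that joins acetyl-CoA units, was at 67.4, 80.2 and 79.0 CPM in C75S and 79.2, 79.4 and 80.6 CPM in WT (log2 fold change -0.08, 95% interval -0.20 to 0.05). *Bdh1*, which reduces acetoacetate to beta-hydroxybutyrate, was at 6.66, 7.21 and 7.22 CPM in C75S and 5.36, 5.46 and 5.68 CPM in WT. Every C75S library was above every WT library, but at counts of 112 to 152 per library the log2 fold change of 0.36 had an SE of 0.15 and an edgeR adjusted p-value of 0.256.

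Thioesterases release free fatty acids from acyl-CoA. Mitochondrial *Acot2* was at 40.9, 53.2 and 47.3 CPM in C75S and 59.0, 48.9 and 51.5 CPM in WT, and cytosolic *Acot1* at 7.12, 8.63 and 7.22 CPM in C75S and 9.21, 8.48 and 11.0 CPM in WT. Their log2 fold changes were -0.17 and -0.31 (edgeR adjusted p = 0.429 and 0.307), and the groups overlapped. The genes are neighbours on chromosome 12 and copies of each other: 24.6% of the 50-base windows of *Acot2* occur in *Acot1*, so their values are uncertain in the same way as those of the thiolases. *Vnn1*, a pantetheinase that acts in CoA turnover and a PPAR-alpha target, was at 25.1 to 32.4 CPM over the 6 libraries (log2 fold change 0.06, 95% interval -0.13 to 0.24).

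A list of 85 other genes of the pathway, also chosen with earlier results of these data known, was read from the same fit. Of these, 83 could be tested, 6 were lower and 1 was higher in C75S at an adjusted p-value under 0.05 (8.43%, against 3.11% of all genes), and the median log2 fold change was -0.03. No gene was called among 15 genes of peroxisome biogenesis or 16 testable genes of mitochondrial oxidation, in edgeR, DESeq2 or limma-voom. In edgeR, 2 and 1 of them had an unadjusted p-value under 0.05 (13.3% and 6.25%, against 13.4% of all genes). Among 28 genes listed as regulators and targets of PPAR-alpha, 5 were called (17.9%, against 3.11% of all genes), all lower. The list also holds related genes such as *Pparg*, *Ppard*, *Pdk1*, *Pdk3* and *Fabp5*, so a call need not mark a PPAR-alpha target. Before adjustment, 8 of the group were lower and 3 higher at a p-value under 0.05 (39.3%, against 13.4% of all genes). The genotypes did not overlap for 7 lower and 4 higher (39.3%, against 18% of all genes). The higher ones included *Cyp4a10*, a fatty acid hydroxylase gene induced by PPAR-alpha, at 5.11, 5.60 and 8.29 CPM in C75S and 4.13, 4.58 and 4.17 CPM in WT (log2 change 0.56, edgeR adjusted p = 0.116). *Lpin1*, for a phosphatidate phosphatase, had a log2 change of -0.36 (edgeR adjusted p = 0.0684) and was called by DESeq2 and limma-voom. Both were picked out after their values were seen. *Cidec*, a lipid droplet protein gene, was at 17.9, 17.8 and 18.2 CPM in C75S and 30.3, 32.3 and 33.2 CPM in WT (log2 change -0.83 ± 0.08, edgeR adjusted p = 6.91e-07), and all 15 alternatives called it. *Fgf21*, a hormone that liver secretes in fasting, was at 2.53, 2.37 and 1.93 CPM in C75S and 5.18, 3.70 and 4.42 CPM in WT (log2 change -0.96 ± 0.22, edgeR adjusted p = 0.0122), and 13 of the 15 called it, with 0.0542 without WT replicate 1 as the highest adjusted p-value. For both genes the genotypes did not overlap.

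The other 3 called genes of that group changed less. *Pparg*, a nuclear receptor related to PPAR-alpha, was at 14.99, 14.1 and 14.5 CPM in C75S and 18.0, 19.4 and 18.1 CPM in WT (log2 fold change -0.35, edgeR adjusted p = 0.0430). *Angptl4*, a secreted inhibitor of lipoprotein lipase, was at 217, 239 and 235 CPM in C75S and 294, 249 and 259 CPM in WT (-0.21, 0.0420). *Acot12*, a cytosolic acetyl-CoA thioesterase, was at 195, 207 and 222 CPM in C75S and 232, 251 and 246 CPM in WT (-0.22, 0.0183). These calls depended on the libraries and the tool: *Pparg* was lost whichever library was left out, and *Angptl4* and *Acot12* in 4 of those 6 fits each, with highest edgeR adjusted p-values of 0.186, 0.221 and 0.135. *Pparg* was also lost with DESeq2 (0.0639) and library-size scaling (0.063), and *Angptl4* with limma-voom (0.0571) and library-size scaling (0.0511). The mRNA of PPAR-alpha itself, *Ppara*, was at 27.6 to 33.6 CPM over the 6 libraries (log2 fold change -0.06, edgeR adjusted p = 0.825).

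Among 17 testable further peroxisomal genes, *Scp2*, for a thiolase and sterol carrier, was called (5.88%, against 3.11% of all genes). It was at 330.2, 379.5 and 376 CPM in C75S and 402, 415 and 461 CPM in WT (log2 fold change -0.23, edgeR adjusted p = 0.0282), and the call was lost without C75S replicate 1 (0.155), WT replicate 2 (0.0845) or WT replicate 3 (0.183). Of 7 further ketone body genes, 1 was called (14.3%, against 3.11% of all genes). Before adjustment, 1 was lower and 2 were higher at an edgeR p-value under 0.05 (42.9%, against 13.4% of all genes). The genotypes did not overlap for 1 lower and 1 higher (28.6%, against 18% of all genes). The called gene, *Oxct1*, which encodes the enzyme that uses ketone bodies and is kept low in hepatocytes, was higher in C75S. Its levels were 25.4, 20.6 and 20.9 CPM in C75S and 15.7, 15.9 and 16.8 CPM in WT (log2 change 0.46 ± 0.10, edgeR adjusted p = 0.00675). Without C75S replicate 1 the change was 0.36 (0.0743), the 1 alternative of 15 that did not call it.

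**Figure D5:**
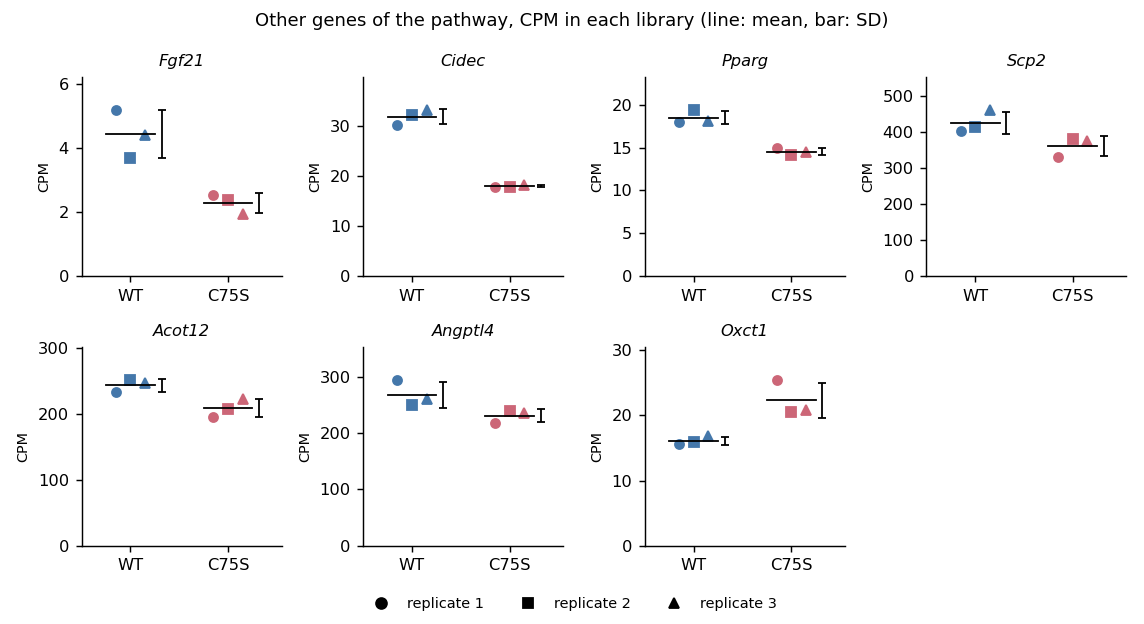
CPM of the 7 called genes of the pathway list in each library (linear axes from 0), with a symbol for each replicate number, lines for the means and bars for the SD of 3 libraries. All C75S points of *Oxct1* lie above the WT points, and for the other 6 genes all C75S points lie below.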

How the data were processed

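RNA sequencing counts of mouse hepatocytes were analysed, 3 libraries of AEG-1-C75S and 3 of WT, grouped by sample title. The deposited files hold raw counts per Ensembl gene with columns for unstranded, forward-strand and reverse-strand counting. Per the submitters' processing notes, Trim Galore 0.6.6, STAR 2.7.9a and edgeR 3.36.0 were used with GRCm38 (mm10); the annotation release is not given in the sources used here. Reverse-strand counts, which summed to 33.3 times the forward-strand counts, were used. The 4 summary rows were left out; genes took 69.8% to 71.2% of the reads in the files.

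Genes were filtered with filterByExpr (minimum count 10, minimum total 15), leaving 12741, then scaled (TMM) and tested in R 4.3.3 with edgeR 4.0.16 (quasi-likelihood F-test, genotype as the single term). P-values were adjusted by Benjamini-Hochberg over all tested genes, threshold 0.05. SEs are the fold change over the square root of F. Levels per length use merged GENCODE M21 exons. The test was checked on simulated data.

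The members and lists were chosen with earlier results of these data known. By rule, values per library are given for called members and called list genes. They are also given for the member of each role with the smallest p-value if the genotypes do not overlap. Outside this rule, they are given for *Cpt1a*, *Acadm*, *Hadhb*, *Acaa2*, *Decr1*, *Ehhadh*, *Acat1*, *Acot1*, *Acot2* and *Cyp4a10*. *Cd36*, *Acsl5* and *Eci2* were added after their values were seen. Alternatives were other scalings (RLE, upper-quartile, library size), DESeq2 1.42.0, limma-voom (limma 3.58.1), other filters, unstranded counts, a replicate block and leaving out each library.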

Additional observations from a re-analysis of the deposited data

How the results depend on the processing

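Of the members, 3 were called lower and 0 higher. With no filter beyond 1 count 5 were lower (*Cd36* and *Hadha* added) and 1 higher. The single higher call, 1 with upper-quartile scaling, library-size scaling, DESeq2, no filter beyond 1 count or the replicate block, was *Acsl5* each time. Leaving out a library gave 0 to 4 lower calls (0 without C75S replicate 1 or WT replicate 3) and 0 to 1 higher calls. For the pathway list, 6 lower calls became 2 to 5 and 1 higher call 0 to 1. The median log2 fold change ranged from -0.0953 to -0.00193 for all members and from -0.147 to -0.0165 for peroxisomal members. It ranged from -0.0747 to 0.00493 for mitochondrial members, above 0 only without C75S replicate 1. With 1 library left out, the medians ran from -0.196 to -0.0929 for the other 8 members and from -0.0577 to -0.0181 for the pathway list. Scaling, filter, tool, strand and block kept these medians of members and list within the spread between libraries, while the median of all tested genes (-0.00296) moved to 0.00895 with library-size scaling and 0.000764 with no filter beyond 1 count. The same-numbered libraries did not deviate together (r = 0.02, -0.04 and 0.03 across genes). These correlations also hold count noise and cannot exclude pairing. The labels do not give any, so the libraries were treated as unpaired. With the replicate block 4 members were called, and *Angptl4* was lost (edgeR adjusted p = 0.0529). Over all genes 396 were called, and 253, 201 and 246 without C75S replicate 1, WT replicate 2 and WT replicate 3. The direction held under all 15 alternatives for the 16 genes refitted one by one: the called members, *Hadha*, *Pex11a*, *Bdh1*, *Cd36*, *Acsl5*, *Eci2* and the called list genes. Depth limits the precision of members with few counts, such as *Acaa1b* and *Bdh1*.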
